A study of Mus musculus with 24 samples.

Results

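The miR-137 line was set against the miR-23b cluster line, both after 7 d of doxycycline (DOX), using 6 of the 24 libraries of the series, 3 from each line, chosen by their sample labels. All of them are from βTC3 cells, a beta cell line from an insulinoma of the Rip-Tag2 mouse, in which an insulin promoter drives a viral oncogene in beta cells. Every line carried the plasmid PB-31. One line had PB-31 with miR-137, the other had PB-31 with the miR-23b cluster, and a control line had PB-31 without a miRNA. DOX, which switches the miRNA on, was given at 2 µg/ml for 7 d. Libraries of the same lines grown for 7 d with no DOX, and of the miRNA lines taken 7 d after DOX was withdrawn, served as further measurements, and the control line on DOX (3 libraries) is given beside levels of named genes. Cells were plated in triplicate wells, so p-values measure the spread between these wells, which may be technical. Each construct is present as 1 line, and the sources used here do not say whether it is a clone or a pool.

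A microRNA is a short RNA that guides Argonaute proteins to messenger RNAs whose 3′ untranslated region (3′ UTR) pairs with its seed, the bases near its 5′ end, and the paired messengers are usually repressed and degraded. miR-137 is best known from neurons and melanocytes. The miR-23b cluster is transcribed as 1 precursor that gives miR-23b, miR-27b and miR-24, which have different seeds. Comparing the lines directly asks how the 2 programmes differ at matched DOX exposure.

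The mature sequences explain which messengers each miRNA could pair with, and are given 5′ to 3′ from RefSeq (GRCm38.p6), with the seed, bases 2 to 8, in capitals.
mmu-miR-137-3p: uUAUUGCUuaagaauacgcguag
mmu-miR-27b-3p: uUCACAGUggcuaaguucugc
mmu-miR-24-3p: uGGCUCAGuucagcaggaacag
The miR-137-3p hairpin lies on chromosome 3 and those of miR-27b-3p and miR-24-3p on chromosome 13. The 3 seeds are distinct, so a site for 1 of them is not a site for the others.

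The genes shown next hold a full-length site of 8 bases and have, among eligible genes, the largest differences toward lower in the line carrying the miRNA. Sites on 1 chromosome and sites whose window crosses an exon junction were left out, so larger differences may exist among holders of those. Holders of a site that differed the other way were not eligible, so the choice set the direction of these genes. The sites are in capitals, as read from the annotated transcripts of GENCODE M21 (GRCm38), in the sense of the messenger. The first 3 match the seed of miR-137-3p, the next pair that of miR-27b-3p and the last pair that of miR-24-3p, each followed by an A opposite base 1 of the miRNA.
Ppargc1a: tctaagtagatagaaAGCAATAAataac
Fndc5: ctccaatccagttagAGCAATAAccact
Akr1c14: gggaaattatcaataAGCAATAAaaatt
Fosb: gctggagcgctttatACTGTGAAtgagt
Acvr1c: ccatatgtctcaaacACTGTGAAatggc
Parp14: tgggacacagcaccaCTGAGCCAatggg
Acvr1c: tagttcgaaaaccacCTGAGCCAttact
These windows lie in 3′ UTRs at chr5:51455605-51455632 (minus strand, Ppargc1a), chr4:129144532-129144559 (plus strand, Fndc5), chr13:4090596-4090623 (plus strand, Akr1c14), chr7:19303916-19303943 (minus strand, Fosb), chr2:58274277-58274304 and chr2:58274327-58274354 (minus strand, Acvr1c) and chr16:35834296-35834323 (minus strand, Parp14). The annotated 3′ UTR of Acvr1c, 7465 bases long, holds 3 further 8-base sites for miR-27b-3p, and that of Ppargc1a, 3930 bases long, 1 further site for miR-137-3p. A match is a sequence and not a measured binding site.

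The induced loci were read first, as a check of the labels. Gm26871, the host transcript that overlaps Mir137 on chromosome 3 (118430324 to 118530022, plus strand), stood at 126, 121 and 121 unadjusted CPM, counts scaled to the library's total of reads in genes, in the 3 miR-137 libraries on DOX, against 4.82, 6.15 and 5.16 in the miR-23b cluster libraries on DOX. The control line on DOX averaged 3.59 ± 0.56 unadjusted CPM (SD, n = 3). Gm26871 was 23.3-fold higher in the miR-137 line (log2 fold change 4.54, SE 0.08, edgeR adjusted p = 1.66e-34), and no library of that line came near the others. Mir137 itself had 0 counts in every library, which allows up to 0.0513 CPM over the miR-137 group on DOX. polyA libraries do not measure mature miRNAs, and these counts cannot tell the plasmid's copy from the cell's own locus.

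The cluster's hairpins showed the opposite. Mir27b had 4 counts over the 3 miR-137 libraries and 5090 over the 3 miR-23b cluster libraries, where it stood at 79.6, 90.1 and 86.8 unadjusted CPM. The miR-23b cluster line was 1250 times higher (95% Poisson interval 488 to 4589, counting error only). Mir24-1 had 3 counts against 6194, a ratio of 2029 (694 to 9837), and Mir23b had 0 counts against 3162, so it was at least 1036-fold higher in the miR-23b cluster line against a floor of 3 counts over the group. The host gene 2010111I01Rik averaged 17.4 ± 1.2 unadjusted CPM in the miR-137 line and 18.5 ± 0.4 in the miR-23b cluster line (SD, n = 3 each), with a log2 fold change of -0.05 (SE 0.08, edgeR adjusted p = 0.613). Mir3074-1, which overlaps Mir24-1 on the other strand, had 1 count against 27. It had 0 counts against 40 without DOX, so this difference was present without induction. Without DOX Gm26871 averaged 4.35 ± 0.39 unadjusted CPM in the miR-137 line and 2.17 ± 0.33 in the miR-23b cluster line, and Mir27b 0.0517 ± 0.0554 in the miR-137 line and 0.482 ± 0.060 in the miR-23b cluster line (SD, n = 3 each).

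**Figure D1:**
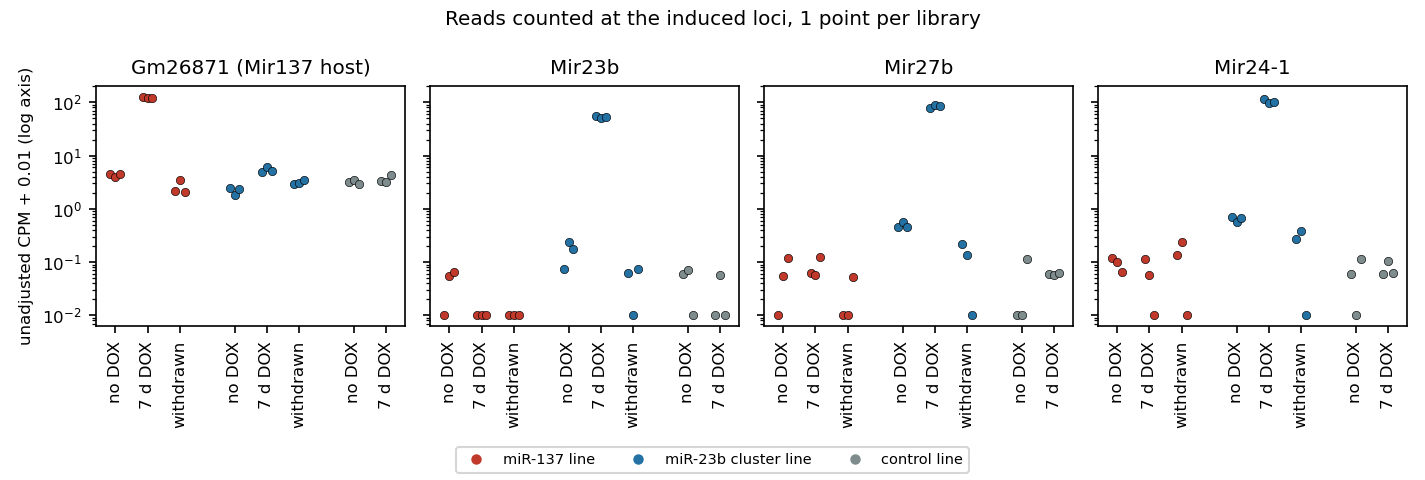
Unadjusted CPM plus 0.01, on a log axis, of Gm26871, Mir23b, Mir27b and Mir24-1 in each library, with the miR-137 line left of the miR-23b cluster line and the control line, and no DOX, 7 d DOX and withdrawn in order. Gm26871 lies between 121 and 126 CPM in the miR-137 line on DOX alone among the groups, and the 3 hairpins lie above 49 CPM in the miR-23b cluster line on DOX alone.

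The 6 libraries held 15882208 to 22287337 reads counted in genes. On the first principal component of these libraries, which took 68.1% of the variance, the miR-137 libraries scored 26.1 to 27.1 and the miR-23b cluster libraries -27.1 to -26.0, and no library stood apart from its group. Among beta cell markers in the miR-137 and miR-23b cluster lines on DOX, Ins2 averaged 8693 and 7008 unadjusted CPM and Pdx1 273 and 249. Chga averaged 2965 and 3578 and Pcsk1 569 and 689, so the beta cell markers did not all differ in 1 direction. Ins1, Mafa and Slc30a8 were also called higher in the miR-137 line, while Iapp, Nkx6-1 and Pcsk2 did not pass the test. Of the alpha and delta cell markers Gcg, glucagon, averaged 58.2 unadjusted CPM in the miR-137 line and 37.9 in the miR-23b cluster line (log2 fold change 0.65, edgeR adjusted p = 7.74e-10), and Sst 2.26 in the miR-137 line and 2.81 in the miR-23b cluster line. Ppy and Hhex were lower still in both lines. In both lines on DOX Prss1, Prss2, Amy2a5 and Cd3e had no counts. The summed unadjusted CPM of 11 fibroblast markers was 2.69 to 3.38 in the miR-137 line and 3.41 to 4.47 in the miR-23b cluster line, that of 11 leukocyte markers 2.98 to 3.21 and 3.46 to 4.72, that of 10 endothelial markers 19.2 to 20.1 and 18.1 to 19.3, and that of 15 exocrine markers 21.4 to 22.7 and 14.6 to 16.8. Of the marker genes that could be tested, 0 of 1, 1 of 2 (Cd68, lower), 1 of 4 (Esam, higher) and 2 of 4 (Cela1 and Bhlha15, higher) passed the test in these lists. Cd68 and Esam lost their call when 1 library was left out. The part of these markers in the results was not tested.

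With both miRNAs induced, the lines differed at 7442 of 14866 genes tested, which is 50.1% (edgeR's quasi-likelihood F test, Benjamini-Hochberg adjusted p below 0.05). Of these, 3738 genes, 25.1% of those tested, were higher in the miR-137 line and 3704 genes, 24.9%, were lower. Most differences were small. The median size among called genes was 0.29 on the log2 scale, 619 genes (4.16%) were called with at least a 2-fold difference, 383 of them higher (2.58%) and 236 lower (1.59%), and 86 reached 4-fold. The even split of calls depends on the scaling: in the authors' table of TPM, tested as log2(TPM + 1), 2207 genes were higher and 5266 lower, with the median over all genes at -0.07.

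The same lines were far closer in libraries that the comparison does not use. Without DOX 135 genes (0.908%) were called, 56 higher (0.377%) and 79 lower (0.531%), and 12 of them reached 2-fold (0.0807%). An unadjusted p under 0.05 was seen for 1710 genes, and the 135 calls became 70 to 99 when 1 library of either line was left out. After withdrawal 1892 genes (12.7%) were called, 971 higher (6.53%) and 921 lower (6.2%), 78 of them with at least 2-fold (0.525%). The miR-137 line on DOX differed from the control line on DOX at 27.3% of genes (14.7% higher, 12.6% lower), and the miR-23b cluster line differed from the same control libraries at 52.2% (25.9% higher, 26.3% lower). Over the 7442 genes called on DOX, the median size of the log2 fold change was 0.29 on DOX, 0.05 without DOX and 0.08 after withdrawal. Of the genes called on DOX and without DOX, 98 were shared, 1.32% of the first list and 72.6% of the second, and 65 of the 98 had the same direction. With withdrawal 1326 were shared, 17.8% and 70.1% of the lists, and 937 had the same direction. Among genes called with at least 2-fold, 8 were shared with the lines without DOX and 43 with the lines after withdrawal, and 8 and 39 of these had the same direction.

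**Figure D2:**
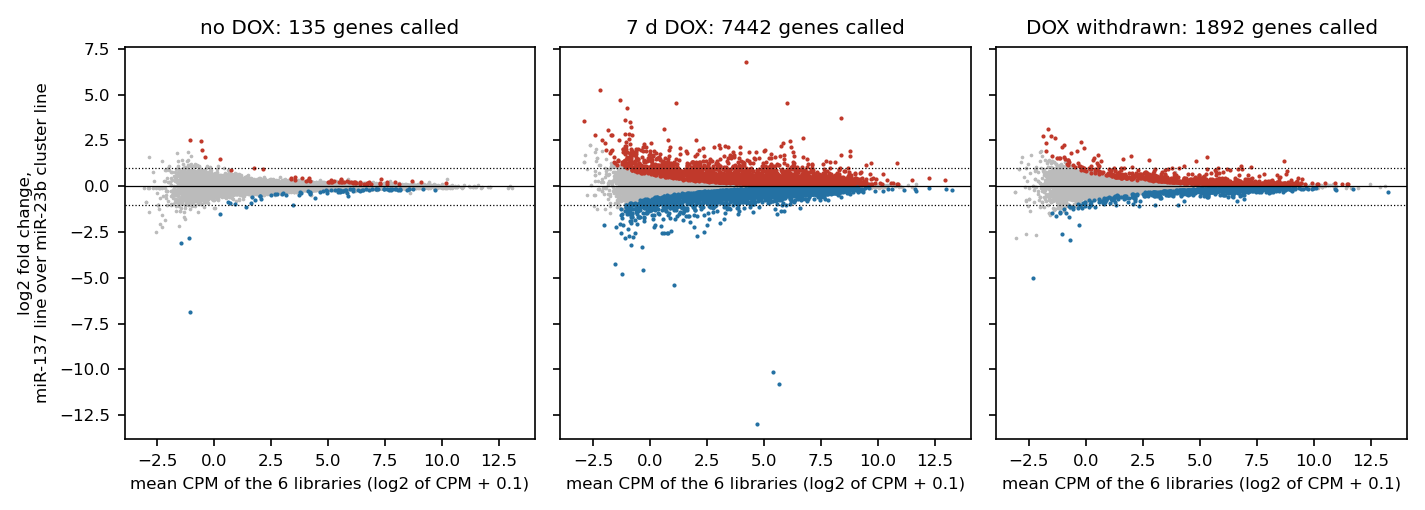
Log2 fold change of the miR-137 line over the miR-23b cluster line against the mean CPM of the 6 libraries of each condition, with called genes in red (higher in the miR-137 line) and blue (lower), uncalled genes in grey and dotted lines at 2-fold. Of the 135 calls without DOX 12 lie at or beyond the 2-fold lines, the 7442 calls on DOX spread on both sides with the 3 cluster hairpins at the bottom, and the 1892 calls after withdrawal spread less widely.

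Among genes with at least 5 CPM in the higher line, the largest differences toward the miR-137 line, other than that of the induced Gm26871, were led by hypoxia-inducible genes of glycolysis and mitochondria, followed by immediate early genes. All 24 genes named by size of difference had libraries that do not overlap between the lines, as their choice required, and 56.2% of all genes tested had such libraries. From here on levels are CPM of TMM-scaled libraries. Ak4, a mitochondrial adenylate kinase, stood at 36.4, 29.6 and 43.0 CPM in the miR-137 line and 0.0913, 0.567 and 0.308 CPM in the miR-23b cluster line. It was almost silent in the miR-23b cluster line, with 20 counts over its 3 libraries, while the control line on DOX held 20.3, 26.4 and 30.5 CPM. The difference was 108-fold (log2 fold change 6.76, SE 0.27, edgeR adjusted p = 4.15e-22), and the SE is too small for a gene with so few counts in 1 group. Without DOX Ak4 averaged 44.4 CPM in the miR-137 line and 37.2 CPM in the miR-23b cluster line, and after withdrawal 59.4 and 19.4 CPM.

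Ldha, the lactate dehydrogenase subunit that favours making lactate from pyruvate, stood at 666, 506 and 701 CPM in the miR-137 line and 45.7, 46.3 and 47.6 CPM in the miR-23b cluster line. Its level was 13.4-fold higher in the miR-137 line (log2 fold change 3.75, SE 0.14, edgeR adjusted p = 5.81e-23), and the control line lay with the miR-137 line at 410, 604 and 637 CPM. Slc16a3, the lactate exporter MCT4, had 191, 155 and 200 CPM against 27.5, 27.4 and 32.8 CPM (log2 fold change 2.65, SE 0.12). Bnip3, a mitochondrial outer membrane protein of mitophagy, had 125, 101 and 132 CPM against 21.8, 20.9 and 20.2 CPM (2.495, SE 0.10). In all 3 of these genes the second miR-137 library was the lowest of its group, yet above every miR-23b cluster library. Ankrd37, an ankyrin repeat protein induced by HIF, had 15.8, 12.6 and 11.4 CPM against 2.74, 3.14 and 2.53 CPM (2.23, SE 0.16), and Mif, a secreted cytokine, 95.7, 83.4 and 106 CPM against 19.6, 18.6 and 17.6 CPM (2.34, SE 0.12). For each of these genes the control line on DOX was nearer to the miR-137 line.

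Egr2 and Fos, immediate early transcription factors, differed in another way. Fos, a subunit of AP-1, had 91.9, 86.4 and 82.0 CPM in the miR-137 line, 17.4, 18.5 and 22.5 CPM in the miR-23b cluster line, and 31.2, 30.1 and 26.3 CPM in the control line. Its log2 fold change between the miRNA lines was 2.17 (SE 0.09, edgeR adjusted p = 1.60e-21), with the control line in between. Egr2 had 7.10, 6.51 and 6.80 CPM in the miR-137 line, 1.14, 1.22 and 1.17 CPM in the miR-23b cluster line and 2.15, 1.90 and 1.78 CPM in the control line (log2 fold change 2.52, SE 0.19). Myo7b, an unconventional myosin of the brush border, had 118, 119 and 116 CPM in the miR-137 line, 26.9, 25.4 and 28.4 CPM in the miR-23b cluster line, and 52.9, 55.2 and 51.8 CPM in the control line (2.14, SE 0.05). Clrn3, a clarin family membrane protein, had 11.7, 11.3 and 10.7 CPM in the miR-137 line, 1.92, 2.88 and 2.90 CPM in the miR-23b cluster line, and 5.11, 3.52 and 4.67 CPM in the control line (2.14, SE 0.14). In these 4 genes the control line lay between both, nearer on the log2 scale to the miR-23b cluster line. Prelid2, a PRELI domain protein, had 15.1, 14.97 and 17.3 CPM against 3.61, 3.66 and 3.08 CPM (2.17, SE 0.12) with 14.4, 16.7 and 16.1 CPM in the control line, and Fhad1 25.7, 23.3 and 26.4 CPM against 5.25, 6.02 and 5.86 CPM (2.14, SE 0.11).

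Toward the miR-23b cluster line the largest differences by the same rule, after the cluster's own hairpins, were in genes of mixed function. Phlda3, a p53 target that restrains the kinase AKT, stood at 1.34, 1.44 and 1.83 CPM in the miR-137 line and 8.31, 8.54 and 9.01 CPM in the miR-23b cluster line. It was 5.62-fold lower in the miR-137 line (log2 fold change -2.49, SE 0.15, edgeR adjusted p = 5.65e-17), and lowest in the control line, at 0.901, 0.523 and 0.610 CPM. Ppargc1a, which encodes the coactivator PGC-1alpha of mitochondrial biogenesis and whose 3′ UTR holds the miR-137-3p sites above, had 2.52, 2.79 and 2.57 CPM in the miR-137 line, 8.77, 9.42 and 9.25 CPM in the miR-23b cluster line and 4.86, 5.04 and 4.93 CPM in the control line. The 3 lines did not overlap, with a log2 fold change between the miRNA lines of -1.79 (SE 0.13, edgeR adjusted p = 5.73e-15). Against the control line the 2 lines lay on opposite sides, at -0.91 (SE 0.14) in the miR-137 line and 0.89 (SE 0.11) in the miR-23b cluster line, both using the same control libraries.

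Several of the others encode membrane or secreted proteins known from neurons. Kcnc4, a voltage-gated potassium channel, had 3.14, 3.395 and 3.43 CPM against 12.7, 12.4 and 15.5 CPM in the miR-23b cluster line (log2 fold change -2.01, SE 0.12). Oprd1, the delta opioid receptor, had 1.44, 0.930 and 1.66 CPM against 4.75, 4.66 and 6.04 CPM (-1.94, SE 0.18), and Nxph4, a neurexophilin, 1.13, 1.302 and 1.49 CPM against 5.34, 6.54 and 6.66 CPM (-2.24, SE 0.17). Ngfr, the low-affinity neurotrophin receptor, had 1.65, 2.09 and 2.11 CPM against 6.07, 5.88 and 6.54 CPM (-1.65, SE 0.13), and Lynx1, a modulator of nicotinic acetylcholine receptors, 2.78, 2.60 and 2.34 CPM against 7.76, 7.28 and 8.08 CPM (-1.57, SE 0.14). Vwde had 1.60, 2.37 and 2.34 CPM against 9.27, 10.1 and 7.83 CPM (-2.12, SE 0.14), and Snhg11 4.17, 4.19 and 4.11 CPM against 12.5, 15.4 and 15.2 CPM (-1.79, SE 0.11). In Ngfr, as in Ppargc1a, the control line lay midway on the log2 scale within the errors, with the miR-137 line at -0.80 (SE 0.15) and the miR-23b cluster line at 0.85 (SE 0.12) relative to it.

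**Figure D3:**
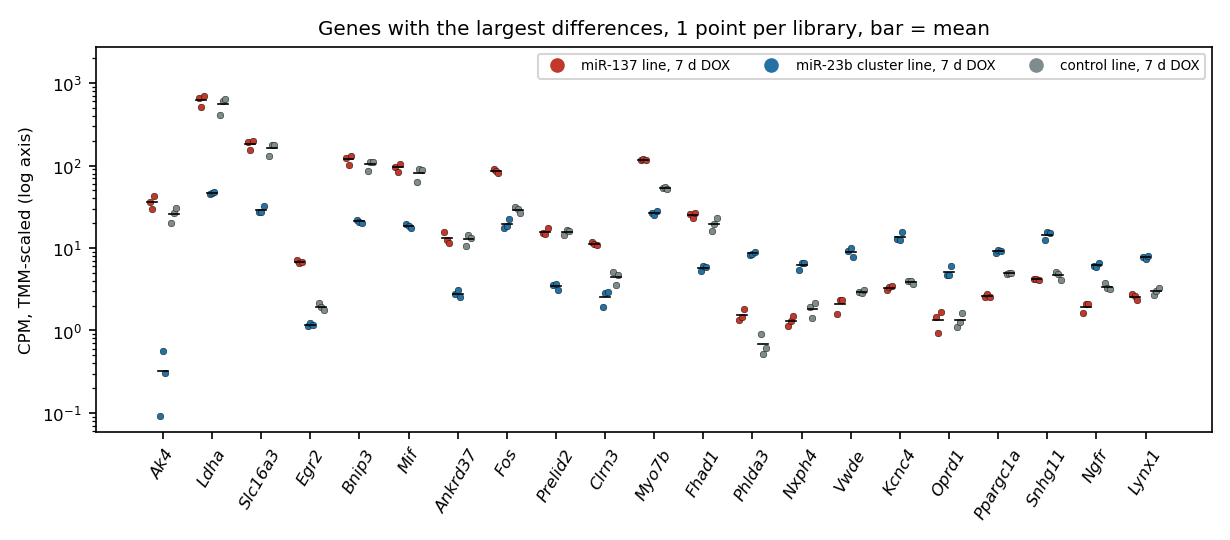
CPM of TMM-scaled libraries, on a log axis, of the genes with the largest differences, with 1 point per library and a bar at the mean, for the miR-137 line, the miR-23b cluster line and the control line, all after 7 d DOX. The miR-137 points lie above the miR-23b cluster points from Ak4 (36.4, 29.6 and 43.0 CPM) to Fhad1 and below them from Phlda3 to Lynx1, and for Ldha, Slc16a3 and Bnip3 the control line lies with the miR-137 line.

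Counted in CPM rather than in folds, the largest differences toward the miR-137 line were in Ins2, Ins1, Gnas and Acly. Ins1 stood at 2556, 2642 and 2502 CPM in the miR-137 line and 1071, 1070 and 1050 CPM in the miR-23b cluster line (log2 fold change 1.27, SE 0.04, edgeR adjusted p = 9.88e-25), with 2538, 2560 and 2392 CPM in the control line. Ins1 and Ins2 are close copies, and reads mapped to several places were not counted in genes, so the share of each is less certain. Ins2 had 8850, 8818 and 8438 CPM against 7199, 6609 and 6708 CPM, a log2 fold change of 0.35 (SE 0.03). Gnas, the stimulatory G protein alpha subunit, was higher by 0.43 on the log2 scale (SE 0.04) and Acly, ATP citrate lyase, by 0.36 (SE 0.03). The largest CPM differences in the other direction were in Igf2, a growth factor of these tumours, at 9134, 9247 and 9019 CPM against 10220, 10360 and 11100 CPM (-0.21, SE 0.03), in the granin Chga (-0.23, SE 0.03), the imprinted Peg3 (-0.21, SE 0.03) and the cytochrome oxidase gene mt-Co1 (-0.18, SE 0.04). In none of these genes did the lines overlap, as their choice required, and 56.2% of all genes tested had such libraries.

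Most glycolysis genes were higher in the miR-137 line. Of 32 members tested, 24 were higher in the miR-137 line and 4 lower, against 25.1% and 24.9% of all genes, and the median was 0.93, against -0.0001 over all genes tested. In the order of the pathway the log2 fold changes of most called members were as follows. Among glucose carriers Slc2a1 had 1.15 and Slc2a2 2.11, while the neuronal carrier Slc2a3 had -0.49. For the kinases that trap glucose Hk1 had 0.44 and Hk2 1.85. The isomerase Gpi1 had 0.88. Of the phosphofructokinase subunits Pfkl had 1.32 and Pfkp 0.97, while Pfkm had -0.36, and of their activators Pfkfb2 had 0.42 and Pfkfb3 1.95. Further down the pathway Aldoa had 1.91, Aldoc 1.31, Tpi1 1.72, Gapdh 0.91, Pgk1 1.60, Pgam1 1.05, Eno1 1.61, Eno2 0.96 and Pkm 0.66. Pdk1, the kinase that shuts pyruvate dehydrogenase, had 1.87, while its relatives Pdk2 and Pdk3 had -0.25 and -0.52. Summed over the list, unadjusted CPM was 4878 to 5538 in the miR-137 libraries and 2364 to 2401 in the miR-23b cluster libraries. Slc2a2, the beta cell glucose carrier GLUT2, stood at 8.18, 7.67 and 7.82 CPM in the miR-137 line and 1.83, 1.57 and 2.16 CPM in the miR-23b cluster line, with no overlap.

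Of 25 hypoxia-inducible genes tested, which share Slc2a1 and Pdk1 with the glycolysis list, 20 were higher and 2 lower, with a median of 0.56. Of all genes 25.1% were higher and 24.9% lower. Hif1a and Epas1, which encode the oxygen-regulated subunits, did not pass the test, at -0.08 and -0.31. Pfkfb4 was the largest lower member, at -0.48 (SE 0.07). In the lines after withdrawal 20 of these genes were higher and 0 lower, against 6.53% and 6.2% of all genes, and 19 and 1 of the glycolysis genes, while without DOX 0 hypoxia-inducible genes were called and 1 glycolysis gene was higher. Against the control line on DOX, 5 hypoxia-inducible genes were higher and 1 lower in the miR-137 line, beside 14.7% and 12.6% of all genes. In the miR-23b cluster line 3 were higher and 20 lower, beside 25.9% and 26.3% of all genes. Of the adenylate and nucleotide kinases, with Ak4 among them, 3 of 15 were higher and 5 lower. The share called, 53.3%, was near the 50.1% of all genes. Ckmt1 (-0.60), Prkaa2 (-0.54) and Ak1 (-0.44) led the lower side.

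Immediate early genes, which report recent calcium and kinase signalling, were higher for 24 of 31 members and lower for 3. All genes had 25.1% higher and 24.9% lower, and the median of the list was 0.67. Besides Fos and Egr2, Fosb had 16.7, 17.9 and 17.5 CPM in the miR-137 line and 4.25, 3.57 and 4.13 CPM in the miR-23b cluster line (log2 fold change 2.13, SE 0.15). Egr3 was low, at 0.360, 0.558 and 0.571 CPM against 0.0457, 0.131 and 0.0617 CPM (2.51, SE 0.57). Junb and Egr1 had 1.67 each, and Nr4a1, an orphan nuclear receptor, 1.52. Dusp6, a phosphatase that turns ERK off, went the other way at -0.83 (SE 0.19), with Dusp4 at -0.82. Against the control line 19 members were higher and 2 lower in the miR-137 line, beside 14.7% and 12.6% of all genes. In the miR-23b cluster line 4 were higher and 18 lower, beside 25.9% and 26.3% of all genes. Without DOX 3 members were higher in the miR-137 line and 0 lower, against 0.377% and 0.531% of all genes. After withdrawal 16 were higher and 0 lower, against 6.53% and 6.2% of all genes.

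Lists of beta cell genes were split to different degrees, beside 25.1% higher and 24.9% lower of all genes tested. Among transcription factors 13 of 24 were higher and 4 lower (median 0.18), but 6 and 4 in the TPM table (median 0.066). Among them were Mlxipl, the glucose-responsive factor ChREBP, at 0.74 (SE 0.06), Rfx6 at 0.66 (SE 0.04) and Mafa at 0.54 (SE 0.17), with Esrrg lowest at -0.65 (SE 0.05). Mafa overlapped between the lines, at 107, 129 and 136 CPM in the miR-137 line against 59.9 to 119 CPM in the miR-23b cluster line, and lost its call without the first miR-23b cluster library (log2 fold change 0.34, edgeR adjusted p = 0.107). Of genes for insulin, amylin, their processing and the granule 13 of 29 were higher and 5 lower, but 11 and 13 in the TPM table. Slc2a2, Ins1 and Trpm5, a calcium-activated channel (1.23, SE 0.06), led the higher members, and the prohormone convertase Pcsk1 the lower ones (-0.24, SE 0.03). Regulated exocytosis genes were lower for 11 of 28 and higher for 8, led by Cplx1 (-0.90), Syt4 (-0.75) and Cadps (-0.60). G protein coupled receptors split 10 higher and 7 lower of 19, from Ffar4, a fatty acid receptor, at 1.55 (SE 0.09) to Adcyap1r1, a PACAP receptor, at -0.95 (SE 0.30). Channels split 10 higher and 6 lower of 30, but 8 and 11 in the TPM table, and the share called, 53.3%, was near the 50.1% of all genes. Among them Itpr3, an inositol trisphosphate receptor, was lowest at -0.86 (SE 0.04). Of 12 other islet and gut hormone genes 5 were higher and 3 lower, but 5 and 5 in the TPM table. Sct, secretin, had 22.7, 27.3 and 23.9 CPM in the miR-137 line and 74.2, 69.0 and 66.1 CPM in the miR-23b cluster line (-1.50, SE 0.06), while Gcg, glucagon, was higher by 0.65 (SE 0.07).

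Lipid synthesis genes were more often higher than lower in the miR-137 line. Over all genes tested 25.1% were higher and 24.9% lower, the shares to set beside each list of this paragraph. Sterol synthesis and uptake genes were higher for 16 of 31 and lower for 4 (median 0.19), but 15 and 6 in the TPM table (median 0.073). Among the higher ones was Insig1, which retains the SREBP escort protein in the endoplasmic reticulum, at 1.16 (SE 0.05). In the lines after withdrawal the count of sterol genes was the other way, with 1 higher and 19 lower, against 6.53% and 6.2% of all genes. Fatty acid synthesis genes were higher for 13 of 24 and lower for 4 (11 and 5 in the TPM table). The desaturase Scd2 led the higher ones at 1163, 1221 and 1134 CPM against 494, 496 and 475 CPM (1.26, SE 0.03). Of interferon response and MHC class I genes 22 of 38 were higher and 4 lower (median 0.29), but 16 and 7 in the TPM table (median 0.12), led by Parp14 (1.56, SE 0.11), Gbp3 (1.49, SE 0.27) and Xaf1 (1.38, SE 0.14). Against the control line on DOX 20 members were lower and 1 higher in the miR-137 line, beside 12.6% and 14.7% of all genes. In the miR-23b cluster line 30 were lower and 1 higher, beside 26.3% and 25.9% of all genes. DNA replication and G1/S genes were higher for 29 of 42 and lower for 5, with a median of 0.15, but for 15 and 9 in the TPM table, with a median of 0.053. The largest single difference was on the lower side, in the cyclin Ccnd2 (-1.39, SE 0.12). Both lines had mostly lower members beside the control line on DOX, with 27 lower and 1 higher in the miR-137 line. In the miR-23b cluster line 35 were lower and 3 higher, and the shares of all genes are those given for the interferon list.

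Of 28 TGF-beta, activin and BMP genes 5 were higher and 10 lower in the miR-137 line (3 and 15 in the TPM table), and the share called, 53.6%, was near the 50.1% of all genes. Acvr1c, the activin receptor ALK7, which carries the miR-27b-3p and miR-24-3p sites above, had 169, 177 and 176 CPM in the miR-137 line and 64.1, 59.8 and 61.3 CPM in the miR-23b cluster line (log2 fold change 1.49, SE 0.04, edgeR adjusted p = 5.98e-29). The control line lay with the miR-137 line at 173, 171 and 178 CPM. Without DOX the difference was 0.18 (edgeR adjusted p = 0.00245), and after withdrawal 0.26 (edgeR adjusted p = 8.28e-07). Among inhibitors of the pathway, named after their values were seen, Smad6 stood at 1.08, 0.791 and 0.914 CPM against 2.24, 3.88 and 3.45 CPM (-1.78, SE 0.22), Smad7 at -0.83 (SE 0.10) and the pseudoreceptor Bambi at -0.72 (SE 0.05), while Fstl3 did not pass the test, at -0.16 (SE 0.09, edgeR adjusted p = 0.128). Of 25 Notch genes 4 were higher and 7 lower (2 and 8 in the TPM table), a share called of 44.0%, no higher than the 50.1% of all genes, with Notch1 at 0.99 (SE 0.04) and the ligands Dll3 and Jag1 at -1.26 and -0.52. Of mesenchymal genes 0 of 9 were higher and 4 lower (0 and 7 in the TPM table), a share of 44.4%, among them Snai2 (-0.57). p53 targets and CDK inhibitors split 9 higher and 12 lower of 30 (4 and 13 in the TPM table), a share called of 70.0%. They ran from Btg2 at 1.47 (SE 0.06) to Phlda3 and Eda2r at -2.49 and -2.53. Clustered protocadherins, neuronal adhesion genes that lie next to each other, were higher for 2 of 48 and lower for 20 (median -0.31), and lower for 13 with DESeq2 and 45 in the TPM table. Their share called was 45.8%, beside 50.1% of all genes, and they are close copies that share reads. Genes of microRNA processing and silencing were higher for 5 of 26 and lower for 12, a share called of 65.4%. Among the lower ones were the Argonautes Ago4 (-0.53), Ago2 (-0.42), Ago1 (-0.33) and Ago3 (-0.22), the nuclease Dicer1 (-0.25), Tsn (-0.45) and Lin28a (-0.91), the last not called in the TPM table.

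The remaining lists had medians between -0.03 and 0.25. Nuclear oxidative phosphorylation genes were higher for 16 of 49 and lower for 4, but 4 and 22 in the TPM table, and mitosis genes 13 and 7 of 40, but 4 and 14. The shares called, 40.8% and 50.0%, were no higher than the 50.1% of all genes. Beside the control line on DOX 35 mitosis genes were lower in the miR-137 line and 33 in the miR-23b cluster line, with 0 higher in either. Of all genes 12.6% were lower in the miR-137 line and 26.3% in the miR-23b cluster line. Other lists had more members higher on the counts and more lower in the TPM table. ATF4 and amino acid supply genes were higher for 15 and lower for 11 of 37, but 8 and 16 there, and ER chaperone and unfolded protein response genes 11 and 3 of 25, but 6 and 12. The same held for heat shock genes (6 and 3 of 20, but 3 and 5), glutathione genes (11 and 9 of 28, but 8 and 11), epithelial adhesion genes (4 and 1 of 11, but 3 and 5), islet progenitor genes (7 and 4 of 19, but 5 and 6) and IGF and neuroendocrine tumour suppressor genes (9 and 8 of 24, but 6 and 10). From ATF4 genes on, in the order named, the shares called were 70.3%, 56.0%, 45.0%, 71.4%, 45.5%, 57.9% and 70.8%, beside 50.1% of all genes. Mitochondrial biogenesis regulators were higher for 3 of 26 and lower for 9 (1 and 10 in the TPM table), a share called of 46.2%, led by Ppargc1a, with the nuclear receptors Esrrg and Esrra next, at -0.65 and -0.49. Circadian genes were higher for 9 of 18 and lower for 7, led by Bhlhe40 at 1.87 (SE 0.12), and of mitochondrially encoded genes 2 of 9 were higher and 3 lower. The shares called in these lists were 88.9% and 55.6%.

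**Figure D4:**
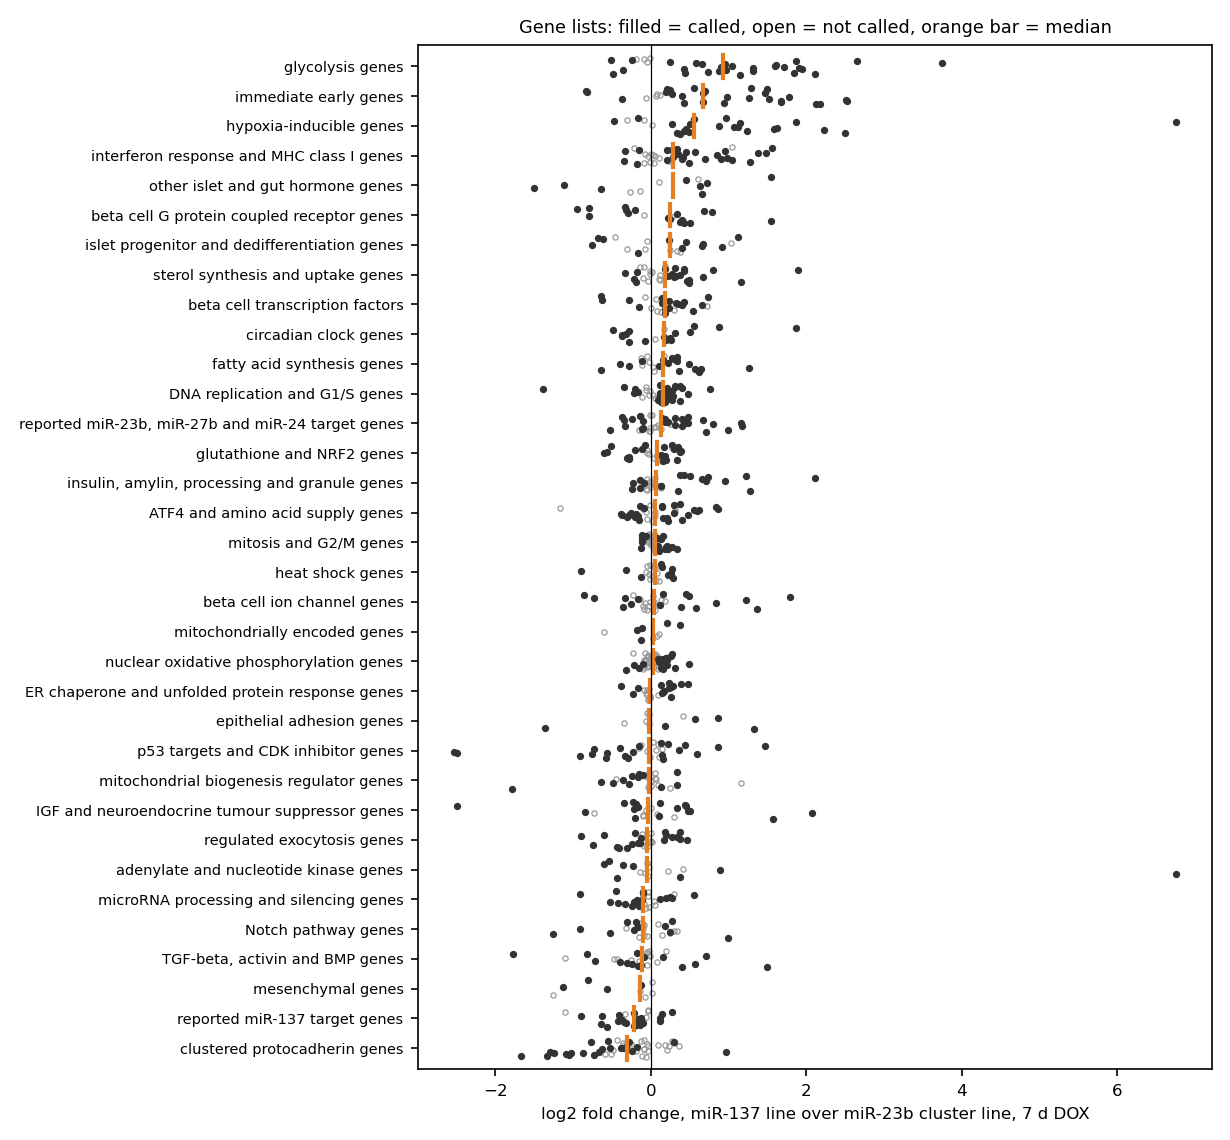
Log2 fold change of the miR-137 line over the miR-23b cluster line, both on 7 d DOX, for every tested member of the lists with at least 9 such members, ordered by median (orange bar), with called members filled. Glycolysis (median 0.93), immediate early (0.67) and hypoxia-inducible genes (0.56) stand at the top, and reported miR-137 targets (-0.22) and clustered protocadherins (-0.31) at the bottom.

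Reported direct targets of each miRNA formed a list of their own. Of 25 reported miR-137 targets tested 4 were higher and 16 lower in the miR-137 line (median -0.22), and 1 and 17 in the TPM table. Of all genes 25.1% were higher and 24.9% lower. Cplx1, a regulator of vesicle fusion, had 3.76, 4.19 and 3.77 CPM in the miR-137 line and 7.58, 7.19 and 7.16 CPM in the miR-23b cluster line (-0.90, SE 0.10), followed by the nuclear receptor Esrrg (-0.65, SE 0.05) and the calcium sensor Syt1 at 13.0, 11.8 and 11.3 CPM against 18.3, 17.7 and 20.1 CPM (-0.63, SE 0.07). Mitf (-0.57), Ezh2 (-0.22) and Kdm1a (-0.14) were lower by less, and Rps6ka2 was the largest in the other direction (0.28, SE 0.04). Against the control line on DOX 12 members were lower and 6 higher in the miR-137 line, beside 12.6% and 14.7% of all genes. In the miR-23b cluster line 5 were lower and 14 higher, beside 26.3% and 25.9% of all genes. Of 39 reported targets of the cluster 18 were higher and 9 lower (median 0.13), but 13 and 14 in the TPM table. The share called was 69.2%, beside 50.1% of all genes. Pparg (1.17, SE 0.26), Sema6a (1.16, SE 0.08) and Notch1 led the higher members and Jag1 the lower ones.

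Seed sites in the reference annotation give a grouping that uses no expression value. Among 12985 tested genes with an annotated 3′ UTR, 719 held a site of 7 or 8 bases for miR-137-3p and none for miR-27b-3p or miR-24-3p. Their median log2 fold change was -0.14, with 14.2% called higher and 48.7% called lower, against -0.005, 26.5% and 27.1% over all genes with a 3′ UTR. The 3544 genes with a site for miR-27b-3p or miR-24-3p and none for miR-137-3p had a median of 0.019, with 31.0% higher and 25.9% lower, and the 8064 genes with none of these sites -0.001. The 658 genes with both kinds lay in between, at -0.064. Sites of miR-23b-3p were not searched, so each of these groups may hold genes with such sites. Taken library by library, the median of the miR-137-3p genes ran from -0.14 to -0.13 in the miR-137 libraries against the mean of the other line. Without DOX the medians of these groups were -0.001, 0.003, -0.003 and 0.002, and after withdrawal -0.007, -0.001, 0.003 and -0.006, each in the order miR-137-3p alone, the cluster's pair alone, none and both. UTR length differs between the groups, with medians of 1937, 2018 and 786 bases for the first 3 groups. In UTRs of 500 to 2000 bases alone the medians were -0.085 for miR-137-3p genes and 0.060 for those of the cluster's pair.

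Beside the control line on DOX the miR-137-3p genes had medians of -0.073 in the miR-137 line and 0.066 in the miR-23b cluster line, and the genes of the cluster's pair 0.008 and -0.009. Of the 290 genes called at least 2-fold higher with a 3′ UTR, 33.8% held a site for miR-27b-3p or miR-24-3p and 7.59% one for miR-137-3p, against 32.4% and 10.6% of all such genes. Of the 196 called at least 2-fold lower, 29.6% and 15.3% held them. Among the 12 largest higher genes Ak4 held a miR-27b-3p site, Slc16a3 a miR-24-3p site and Egr2 a miR-137-3p site. Among the 9 largest lower ones with a 3′ UTR Ppargc1a held a miR-137-3p site, Lynx1, Ngfr and Vwde a miR-27b-3p site and Snhg11 a site for miR-24-3p. Fndc5, which encodes the precursor of irisin, had 8.90, 8.51 and 7.71 CPM in the miR-137 line and 22.3, 21.6 and 21.3 CPM in the miR-23b cluster line (-1.37, SE 0.07). Akr1c14, a hydroxysteroid dehydrogenase, had 32.5, 32.6 and 34.6 CPM against 85.8, 86.2 and 78.8 CPM (-1.34, SE 0.05). Both genes were chosen as lower in the miR-137 line with no overlap. The control line was nearer to the miR-137 line, at 11.4, 11.2 and 10.4 CPM for Fndc5 and 35.3, 34.3 and 32.9 CPM for Akr1c14.

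**Figure D5:**
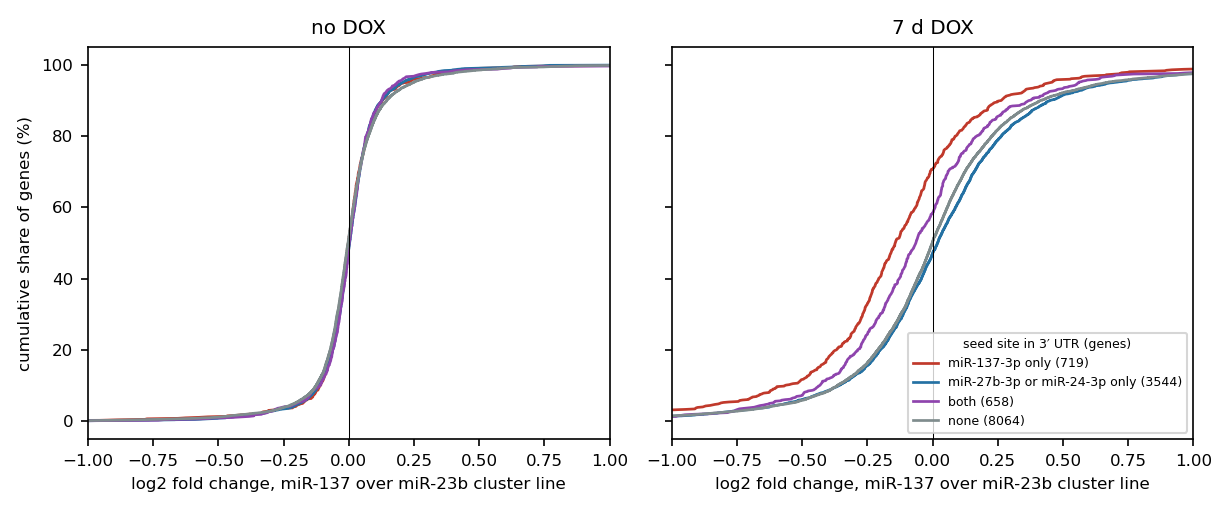
Cumulative share of genes (percent) against the log2 fold change of the miR-137 line over the miR-23b cluster line, without DOX (left) and after 7 d DOX (right), for genes grouped by seed sites in the 3′ UTR. The 4 curves lie on each other without DOX, and on DOX the curve of the 719 miR-137-3p genes is shifted left by a median of -0.14. That of the 3544 genes of the cluster's pair lies just right of the curve of genes with none of the searched sites.

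Some differences between the lines were present without DOX. The largest, among genes with at least 5 CPM, were Fam151a (0.48), Snx31 (0.46), Muc4 (0.46) and F13a1 (0.44), with the mucin gene Muc2 at 0.93, on the higher side. On DOX Muc2 averaged 4.01 CPM in the miR-137 line and 0.172 CPM in the miR-23b cluster line, with a log2 fold change of 4.55. On the lower side were Dnah6 (-1.02), Ccnd2 (-0.69), Pdyn (-0.66), Pappa2 (-0.54) and Ufsp1 (-0.50). Ccnd2, a D-type cyclin, was lower in the miR-137 line in all 3 conditions, at -0.69 without DOX, -1.39 on DOX and -0.88 after withdrawal, and Dnah6 at -1.02, -0.55 and -1.02. After withdrawal Muc2 (1.63), Ak4 (1.60), Egln3 (1.45), Nr4a1 (1.39) and Ldha (1.35) led the higher genes, and Ppargc1a (-1.07), Pdzk1 (-1.04), Dnah6 (-1.02), Spon2 (-0.95) and Onecut3 (-0.80) the lower ones. Ldha averaged 596 CPM in the miR-137 line and 232 CPM in the miR-23b cluster line at that time, and 730 and 633 CPM without DOX.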

How the data were processed

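Polyadenylated RNA was sequenced from βTC3 cells (stranded kit, per the labels' protocols). The deposited files hold raw read counts per gene for 46517 entries, of which 46005 had a GENCODE M21 symbol, and a normalized table of the whole series, deposited by the authors and read here as TPM. GRCm38 and mm10 are the builds and featureCounts, RSEM 1.2.19, HTSeq 0.6.1, STAR 2.4.0g and cutadapt 1.3 the tools listed, per the submitters' processing notes, without saying which made which table. That unit was taken from the values, since those of each library sum to about 1e6, and it lists the cluster's hairpins at 0, so it is an alternative only. Rows that name no gene (no feature 10.2% to 11.8%, aligned more than once 25.4% to 27.2% of reads in the 6 libraries) were left out, so close copies are less certain.

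Counts were fitted in R 4.3.3 with edgeR 4.0.16 (filterByExpr, TMM, quasi-likelihood F test): all 24 libraries, 8 group means, common variation between libraries of a group, beyond counting noise, 3%. SE is the size of the log2 fold change over the root of F, and errors of levels are SD (n = 3). The self-test on simulated data recovered 92% of genes changed 2-fold and 55.1% of those changed 1.2-fold, and called 12 of 14567 unchanged genes. It changed only 200 genes and gave genes of like level the same spread. In the comparison itself 50.1% of genes were called, so these rates may not hold there. limma 3.58.1 tested log2(TPM + 1), and DESeq2 1.42.0 was an alternative.

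Named genes are the 12 largest differences each way (adjusted p below 0.05, at least 5 CPM in the higher group, no overlap, a gene symbol of its own), the 4 largest CPM differences each way, the induced loci, 3 members of each list in its main direction and 1 in the other, 5 each way for the other conditions, and genes with 8-base sites. Genes with 8-base sites were taken only where they were lower in the line that carries the miRNA. Sites on 1 chromosome and those with a window across an exon junction were left out of that choice. Further members of the glycolysis, hypoxia, immediate early, target, microRNA processing and mitochondrial biogenesis lists were named after their values were seen. Members and lists were chosen with earlier results of these data known, lists from general knowledge, and they are described by counts and medians with no set test. Seed sites were searched on the sense strand of the longest annotated 3′ UTR as AGCAATA for miR-137-3p, as ACTGTGA for miR-27b-3p, and as CTGAGCC for miR-24-3p, each followed by an A in an 8-base site. Sites of miR-23b-3p were not searched, as its mature sequence was missing from the reference. A few named genes are not reported here. Replicate pairs differed by 1.53 to 3.62 in chi-square per degree of freedom, more than repeated sampling of 1 library gives. Each library was counted as a replicate of its well. These values cannot tell technical from biological spread, and the wells do not replicate the construct. The alternatives tried were other scaling, tools, filters and pseudocounts, the 6 libraries alone, a replicate block and leaving out each library.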

Additional observations from a re-analysis of the deposited data

Results flagged for a closer look

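Several named genes differed between the lines in opposite directions with DOX and in another condition, with the 3 libraries of each line not overlapping either time. Only named genes were looked at, and the share of all genes with such a reversal was not counted. Opposite directions were not rare: of genes called both on DOX and without DOX 33 of 98 had them, and with withdrawal 389 of 1326. The difference between conditions was not tested, and each value is the log2 fold change of the miR-137 line over the miR-23b cluster line. Pdzk1, a scaffold protein of membrane transporters, stood at 0.85 on DOX, -0.75 without DOX and -1.04 after withdrawal. Pdyn, prodynorphin, stood at 0.73 on DOX and -0.66 without DOX, and Ufsp1 at 0.24 on DOX and -0.50 without DOX. Phlda3 stood at -2.49 on DOX and 0.95 after withdrawal, where both lines were low, at 1.42 ± 0.33 CPM in the miR-137 line and 0.724 ± 0.059 CPM in the miR-23b cluster line (SD, n = 3 each). Ins2 stood at 0.35 on DOX, -0.09 without DOX and -0.29 after withdrawal, Acly at 0.36 on DOX and -0.15 after withdrawal, and Chga at -0.23 on DOX and 0.12 after withdrawal. The adjusted p-values of edgeR in the other conditions ran from 2.25e-12 for Pdzk1 after withdrawal to 0.275 for Ins2 without DOX.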

How the results depend on the processing

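Of 170 named genes tested, 153 kept their direction and their side of the threshold in every alternative that gave a value, and 0 changed direction. The genes called on DOX numbered 6564 to 6989 when 1 library was left out, 3249 to 3521 higher and 3289 to 3468 lower, with 596 to 644 at 2-fold or more. The TPM table gave 2207 higher with a pseudocount of 1 and 2220 with 0.1, and 112 and 396 genes at 2-fold or more. glmTreat against a fold of 1.2 called 2280. Without DOX the 135 calls became 255 with no filter, 28 and 30 in the TPM table and 70 to 99 with 1 library left out, and 81, 81, 72 and 70 without miR-137 library 3 or miR-23b cluster library 1, 2 or 3. After withdrawal they ran from 1279 to 1632 with 1 library left out. The replicate block gave 7557 calls on DOX, and same-numbered libraries shared little (correlations up to 0.0836 on DOX), so the numbers were not taken as pairs. The block changed no call among the named genes. For sites, 8-base sites alone gave medians of -0.134 (miR-137-3p), 0.032 (the cluster's pair), -0.057 (both) and -0.006 (none), UTRs of 500 to 2000 bases -0.085, 0.060, -0.034 and -0.011, and the TPM table -0.182, -0.059, -0.128 and -0.079, beside -0.081 over all genes with a 3′ UTR there. The causes of these shifts were not tested. 15 named genes lost their call somewhere. Of those named above, Mafa lost it without miR-23b cluster library 1, Jag1 without miR-23b cluster library 2, Esam without miR-137 library 2, and Cd68 without miR-137 library 1 or 3 or miR-23b cluster library 2 or 3. Low genes such as Egr3 and Smad6 are limited by depth.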
